A study of Homo sapiens with 4 samples.

Results

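The ZNF genes are protein-coding genes whose approved symbol is ZNF followed by digits, the naming series of human zinc finger genes, and 102 of them were found among the 5790 protein-coding genes that could be named in a list of PRMT5-associated RNA peaks. They were taken by symbol and not by any measured value, and ZNF580 and ZNF581 were left out by the selection rule. Their 220 peaks were part of a list of 18993 peaks, with 71 peaks in 32 genes on chromosome 19 and 149 peaks in 70 genes on other chromosomes. The list came from 4 libraries of Jurkat cells, a human T cell leukemia line. All cells were stimulated with PHA, a plant lectin that activates T cells, for 48 hours and fixed with UV light (264 nm and 400 mJ in the labels), which crosslinks proteins to the RNA that they touch. There were 2 PRMT5 RIP libraries, made from RNA recovered by immunoprecipitation (with a FLAG antibody, per the series' design text), and 2 input libraries. PRMT5 is an arginine methyltransferase, and the comparison of RIP with input asked which RNAs were recovered with it.

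The unit of the list is RPM, a read count scaled to the size of the library, and each peak has 1 pooled RPM value per group. No spread between the 2 libraries of a group could therefore be given, and no difference was tested. Every number describes these pooled libraries of 1 cell line, and no immunoprecipitation with a control antibody was analysed here. A gene's level was the sum of RPM over its peaks. Its ratio was the log2 of PRMT5 RIP over input, after 0.01 RPM was added to both. A gene was counted as enriched where PRMT5 RIP was at least 2 times input. Of 14 T cell marker genes, 9 had a peak and together reached 902 RPM in input. CD79A, of 5 B cell markers, and CSF1R, of 5 myeloid markers, also had peaks, at 37.3 and 29.5 RPM in input, and none of 5 epithelial markers had one.

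Zinc finger proteins of the C2H2 kind fold short loops around zinc ions and use arrays of them to read DNA. Many ZNF proteins also carry a KRAB domain, which recruits the scaffold TRIM28 and, through it, the histone methyltransferase SETDB1 and HP1 proteins, and this machinery silences transposable elements. The genes multiplied by tandem duplication, and the densest arrays lie on human chromosome 19. Not every ZNF symbol stands for such a protein, and some of the genes below work in ribosome assembly, at the spindle or on RNA.

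The sequences shown first surround annotated starts of the 6 ZNF genes in which a peak of at most 1000 nt covered a start. Short peaks were chosen because they mark a position more closely than wide ones. Each window holds 50 bases before an annotated start in lower case and the 30 bases from that start on in capitals. It reads 5′ to 3′ on the gene's strand, from RefSeq (GRCh38.p14). In ZNF32, ZNF644 and ZNF668 the annotated start lies inside the gene's bounds. In these genes the lower-case bases are thus also within the gene, and the peak covers them.
ZNF511, chr10:133308864-133308943, plus strand: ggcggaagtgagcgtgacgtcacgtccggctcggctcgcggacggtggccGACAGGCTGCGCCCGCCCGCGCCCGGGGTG
ZNF32, chr10:43648770-43648849, minus strand: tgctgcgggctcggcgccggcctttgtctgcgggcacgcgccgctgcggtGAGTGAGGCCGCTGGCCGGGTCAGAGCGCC
ZNF644, chr1:91021454-91021533, minus strand: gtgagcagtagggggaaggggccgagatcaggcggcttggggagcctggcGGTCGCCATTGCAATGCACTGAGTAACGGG
ZNF593, chr1:26169858-26169937, plus strand: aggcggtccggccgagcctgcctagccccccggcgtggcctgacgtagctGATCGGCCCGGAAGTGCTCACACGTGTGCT
ZNF433, chr19:12035650-12035729, minus strand: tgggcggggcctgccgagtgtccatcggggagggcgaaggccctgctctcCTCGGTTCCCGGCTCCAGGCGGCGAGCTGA
ZNF668, chr16:31073473-31073552, minus strand: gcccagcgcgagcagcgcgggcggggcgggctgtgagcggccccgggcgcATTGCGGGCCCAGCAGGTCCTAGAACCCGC

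These 6 windows were rich in G and C, from 65.0% of bases in ZNF644 to 80.0% in ZNF668. The ratio of the peak over the start differed widely among them. It was 3.24 in ZNF511 (7.09 RPM in PRMT5 RIP, 0.74 RPM in input) and 2.51 in ZNF32 (1.41 and 0.24 RPM). It was 1.35 in ZNF644, a partner of histone H3K9 methyltransferases, at only 0.22 and 0.08 RPM. ZNF593, ZNF433 and ZNF668 had ratios of 1.11, 1.06 and 0.95. The start peaks of ZNF511, ZNF32, ZNF593 and ZNF433 shared bases with a peak on the opposite strand. In all, 13 ZNF genes had a peak over an annotated start, 5 of them on chromosome 19, and in 6 of the 13 the peak's outer edge was the annotated start base itself.

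Most ZNF genes in the list were low in input and higher in PRMT5 RIP. Of the 101 genes with a ratio, 77 (76.2%) were enriched, the median ratio was 1.40, and 66 (65.3%) had less than 1 RPM in input. Over all 5788 protein-coding genes with a ratio, 63.9% were enriched, the median ratio was 1.21 and 33.2% lay below 1 RPM in input. Nearly all peaks of the list were higher in PRMT5 RIP, so a high share of enriched genes is built into it. ZNF500 was listed at 0 RPM in both groups, at chr16:4748783-4749049, and got no ratio. In 1 ZNF gene, ZNF207, PRMT5 RIP was below input.

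Chromosome 19 and the other chromosomes gave similar ratios. On chromosome 19, 25 of 32 ZNF genes were enriched (78.1%, exact Clopper-Pearson 95% interval 60.0 to 90.7%), with a median ratio of 1.49 (quartiles 1.09 and 1.87, range 0.36 to 2.68). On other chromosomes, 52 of 69 were enriched (75.4%, interval 63.5 to 84.9%), with a median of 1.29 (quartiles 1.00 and 2.09, range −0.14 to 3.54). These intervals treat each gene as 1 draw and hold no error between libraries. The ranges of the groups overlapped over nearly their whole length, although the ratios above 2.68 all came from other chromosomes. Among protein-coding genes without a ZNF name, 58.7% were enriched on chromosome 19 and 64.1% elsewhere, with medians of 1.13 and 1.21.

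Ratios were lower in genes with more input, and ZNF genes lay mostly at the low end. Among genes without a ZNF name, split into 10 classes by summed input, the median ratio fell from 1.83 in the lowest class to 0.71 in the highest. The ZNF genes were spread unevenly over these classes, with 26 in the lowest, 20 in the next and 0 in the highest. Set against the median of its own class, the median difference of the ZNF genes was −0.06 on the log2 scale (quartiles −0.39 and 0.39), and 46 of 101 (45.5%) lay above. On chromosome 19 the median difference was 0.01 and 16 of 32 genes lay above their class. On other chromosomes it was −0.06, and 30 of 69 lay above.

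**Figure D1:**
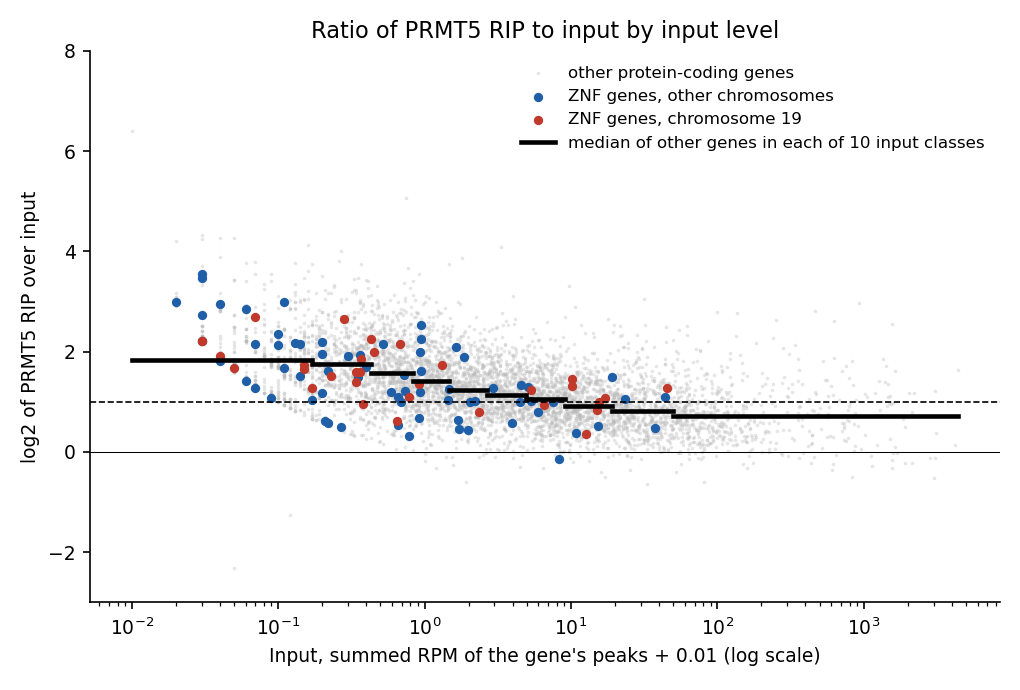
The log2 ratio of PRMT5 RIP over input (y) against summed input in RPM plus 0.01 (x, log scale), for ZNF genes on chromosome 19 (red), on other chromosomes (blue) and other protein-coding genes (grey). Black bars are the medians of other genes in 10 classes of input and fall from 1.83 to 0.71, and the ZNF genes lie on both sides of them, 46 of 101 above.

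The same pattern appeared in plain bands of input. Below 0.2 RPM, 31 of 31 ZNF genes were enriched, beside 94.4% of all protein-coding genes. Between 0.2 and 1 RPM the share was 77.1% (27 of 35) beside 85.0%, and between 1 and 5 RPM it was 60.0% (9 of 15) beside 70.6%. At 5 RPM and above it was 50.0% (10 of 20) beside 39.1%, and there 5 of 9 genes on chromosome 19 and 5 of 11 on other chromosomes were enriched. The lowest level of a ZNF peak above 0 was 0.13 RPM in PRMT5 RIP, and 9 peaks of the whole list were lower. A gene with at most 0.065 RPM in input, as 16 ZNF genes had, was thus at least 2 times higher in PRMT5 RIP if it was listed above 0 at all.

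The chromosomes differed in how many ZNF genes were in the list. RefSeq holds 475 ZNF genes, and the strand, which the naming of peaks needed, was known for 403. On chromosome 19, 32 of 208 such genes had a named peak (15.4%, exact interval 10.8 to 21.0%), and on other chromosomes 69 of 195 (35.4%, interval 28.7 to 42.5%). Among genes without a ZNF name the order was the opposite, with 46.3% on chromosome 19 (450 of 971) and 35.5% elsewhere (5097 of 14376). Counting a gene when any peak touched it on its strand gave 16.8% of ZNF genes on chromosome 19 and 37.4% elsewhere, beside 48.7% and 37.0% of other genes. A gene outside the list is one without a called peak, and less RNA in the cell and less binding per transcript cannot be told apart in such a list. How reads shared by similar ZNF copies were counted is not given in the sources used here, and their part in the difference was not tested.

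Within chromosome 19 the genes of the list were not spread evenly over the gene clusters. When annotated ZNF genes closer than 500000 bases were joined, the 10 clusters with at least 5 genes held all 32 listed genes, and 198 of the 208 annotated ones of known strand. The cluster chr19:55476617-56671757 gave 6 of its 12 genes of known strand (ZNF628, ZNF579, ZNF784, ZNF787, ZNF444 and ZNF71). The most distal one, chr19:57191500-58489533, gave 10 of 38, among them ZNF837, ZNF776, ZNF584 and ZNF530. Several other large clusters gave few. The cluster chr19:19668153-24129968 gave 2 of 29 (ZNF101 and ZNF430), chr19:51571283-53580269 gave 2 of 32 (ZNF765 and ZNF761), and chr19:36182060-37779586 gave 1 of 23, ZNF569. Outside chromosome 19, chromosome 16 gave 13 of 27 genes and chromosome 7 gave 12 of 31. Chromosome 14 gave 3 of 3, chromosome 9 gave 1 of 10 and chromosome 12 gave 1 of 11.

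On chromosome 19, 11 listed ZNF genes reached 1 RPM in input. ZNF428 stood highest, at 109 RPM after PRMT5 RIP against 45.2 RPM in input, a ratio of 1.27 that lay 0.45 above its class. Its only peak was 12006 nt wide, ended at the annotated start, and shared bases with a peak of ZNF576 on the opposite strand. ZNF575, in the same cluster, had 27.8 and 10.1 RPM (ratio 1.46, 0.54 above its class). ZNF444, which has a SCAN domain, a dimerization module of some zinc finger proteins, had 25.3 and 10.2 RPM (ratio 1.31, 0.40 above its class). Of this, 23.3 and 9.11 RPM lay in 1 peak of 13925 nt that listed 2 identifiers and had no log2 fold change from the peak caller, and without that peak the ratio was 0.90, below the 2-fold line. These 3 were the enriched genes of chromosome 19 with at least 10 RPM in input that lay farthest above their class.

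The other named genes of the chromosome lay on both sides of the 2-fold line. ZNF414 had 35.7 and 17.0 RPM (ratio 1.07) and ZNF579 12.6 and 5.34 RPM (ratio 1.23, and 0.94 as the median over its peaks). ZNF576 had 31.1 and 15.6 RPM, and its ratio of 1.00 to 2 decimals was just short of the line, 0.9986 before rounding, so that the step of 0.01 RPM alone could have moved it across, and it was 1.43 from peaks of at most 1000 nt. ZNF433, a KRAB zinc finger gene, had 12.5 and 6.50 RPM (ratio 0.94, and 1.06 from its short peak over the start alone). ZNF787 had 7 peaks, the most of any ZNF gene, and 27.0 and 15.2 RPM in all (ratio 0.83). ZNF653, a transcriptional repressor, had the lowest ratio on the chromosome, 0.36, at 16.3 and 12.7 RPM over 6 peaks, 0.56 below its class. At the low end of input, ZNF837 had 4.38 and 1.31 RPM over 6 peaks (ratio 1.73), and ZNF776 had 4.09 and 2.36 RPM (ratio 0.79).

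On other chromosomes, 24 listed ZNF genes reached 1 RPM in input. ZNF593, known for its part in assembly of the large ribosomal subunit, was the most abundant, at 94.0 RPM after PRMT5 RIP against 43.8 RPM in input (ratio 1.10, 0.28 above its class). Both its peaks shared bases with a peak on the opposite strand. ZNF771, on chromosome 16, had 53.2 and 18.96 RPM (ratio 1.49, 0.58 above its class). ZNF48, which lies beside it on the same strand, had 52.1 and 37.6 RPM and a ratio of only 0.47. From peaks of at most 1000 nt the ratio of ZNF48 was 2.29, at far lower levels. The one of these peaks with the most PRMT5 RIP held 2.04 and 0.09 RPM. ZNF511 had 48.5 and 23.3 RPM (ratio 1.06, and 0.96 as the median over its peaks).

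The highest ratios with at least 1 RPM in input belonged to ZNF330 and ZNF24. ZNF330, which encodes a nucleolar protein, had 6.99 RPM after PRMT5 RIP against 1.64 RPM in input, a ratio of 2.08 that lay 0.85 above its class. ZNF24, a SCAN domain gene, had 6.88 and 1.85 RPM in a single peak of 4580 nt (ratio 1.89, 0.66 above its class). ZNF219 had 11.5 and 4.54 RPM (ratio 1.34), ZNF775 12.5 and 5.09 RPM (ratio 1.29) and ZNF668 14.9 and 7.52 RPM over 6 peaks (ratio 0.99).

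The lowest ratio of all ZNF genes was that of ZNF207, which encodes a spindle protein that binds the checkpoint protein BUB3. It had 7.44 RPM after PRMT5 RIP against 8.22 RPM in input, a ratio of −0.14 that lay 1.19 below its class. Its level came mostly from 1 peak of 27108 nt that began before the gene and listed 5 identifiers. That peak had no log2 fold change from the peak caller and shared bases with a peak on the opposite strand. The gene's other peak, of 50 nt, lay inside the wide one on the same strand and held 1.72 and 1.66 RPM (ratio 0.051). ZNF174, a SCAN domain repressor, had 14.1 and 10.9 RPM (ratio 0.37), ZNF512 2.67 and 1.96 RPM (ratio 0.44) and ZNF789 2.36 and 1.71 RPM (ratio 0.46). With the peak caller's log2FC these genes, ZNF207 included, all passed the 2-fold line. Under other alternatives too, ZNF512 and ZNF789 did not keep their side of it. ZNF512 came to 1.06 from peaks of at most 1000 nt or under an FDR limit of 0.01. No peak of ZNF512 left by these limits held more than 0.55 and 0.32 RPM. ZNF789 came to 1.22 from peaks inside the gene or without an overlap on the opposite strand, at 0.20 and 0.08 RPM.

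The largest ratios lay among genes with almost no input and were chosen for description after their values were seen. ZNF12, a KRAB gene, had 0.34 RPM after PRMT5 RIP against 0.02 RPM in input (ratio 3.54). ZNF516, known as a partner of the corepressor CtBP, had 0.32 and 0.02 RPM (ratio 3.46). With values rounded to 0.01 RPM, the quotient of PRMT5 RIP over input could have been anywhere from 13.4 to 23.0 for ZNF12 and from 12.6 to 21.7 for ZNF516. ZNF747, on chromosome 16, reached a ratio of 2.53 at 5.47 and 0.94 RPM over 4 peaks, and ZNF530, on chromosome 19, 2.65 at 1.75 and 0.27 RPM in 1 peak. Of all ZNF genes, 24 (23.8%) had a ratio of at least 2, beside 14.5% of all protein-coding genes, and 6 of the 24 were on chromosome 19.

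The peaks of ZNF genes were short. Their median width was 150 nt, beside 317 nt in other protein-coding genes, 45 of 220 (20.5%) were 25 nt wide, the smallest width, and 52 (23.6%) were wider than 1000 nt, beside 15.3% and 34.2% in other genes. The median peak held 0.885 RPM after PRMT5 RIP against 0.28 RPM in input, beside 1.98 and 0.85 RPM in other genes. The widths were thus not compared at matched levels. In 46 ZNF genes (45.5%, beside 38.4% of all protein-coding genes) there was only 1 peak. PRMT5 RIP was below input in 2 of the 220 peaks (0.909%), beside 3.42% of peaks in other genes. The peaks also leaned to the gene's start outside chromosome 19. There 37.6% had their middle in the first 10% of the gene or before it. The share was 21.1% on chromosome 19 and 27.5% in other protein-coding genes. Nevertheless only 13 of 218 peaks (5.96%) covered an annotated start, beside 12.9% in other genes.

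Ratios were higher near the start of ZNF genes than farther along. The median ratio was 1.58 for peaks in or before the first 10% of the gene. It was 1.20 in the middle and 1.15 in or beyond the last 10%. In other genes these medians were 1.50, 0.98 and 0.86. In the 55 ZNF genes with several peaks, the peak nearest the 5′ end had the higher ratio in 34 (61.8%, exact interval 47.7 to 74.6%). The count was 13 of 17 on chromosome 19 and 21 of 38 elsewhere, and it was 71.6% of 3509 other genes. Over all alternatives the share in ZNF genes lay between 52.7% and 67.3%. A pseudocount of 1 RPM gave the lowest share, and peaks inside the gene, in 49 genes, gave the highest. A pseudocount of 0.1 RPM gave 56.4%, and dropping peaks with an opposite-strand overlap gave 66.7% of 45 genes. The widest gaps were in ZNF511 (3.24 at the 5′ peak and 0.96 at the 3′ peak) and ZNF32 (2.51 and 0.36), both through the short peaks over the starts printed above. ZNF22 ran the other way, with 0.26 at its 5′ peak and 1.87 at its 3′ peak. All peaks of ZNF511, ZNF32 and ZNF22 shared bases with a peak on the opposite strand.

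Single peaks could differ strongly within 1 gene. In ZNF48 the widest peak, of 17108 nt, held 46.7 RPM after PRMT5 RIP against 36.8 RPM in input (ratio 0.34), while the peak of 150 nt that followed held 2.04 and 0.09 RPM (ratio 4.36) and the next one 2.33 and 0.18 RPM (ratio 3.62). ZNF787 held a peak of 225 nt at 2.84 and 0.20 RPM (ratio 3.76) between peaks with ratios of 0.98 and 0.66. The widest peak of ZNF48 held most of the gene's RPM and so set its summed ratio. In ZNF174, ZNF207, ZNF512 and ZNF653, short peaks lay inside a wider peak of the gene on the same strand. The wide peaks of ZNF207 and ZNF653 listed 5 and 4 identifiers. How reads of such nested peaks were counted is not given in the sources used here. The sums of these genes may thus hold the same reads more than once.

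Some ZNF levels also rested on bases outside the gene. Of 24 ZNF genes named by rule, 8 had a peak that reached past the gene's bounds, such as the peak of 29147 nt at ZNF653, the peak of 39343 nt at ZNF174 and 3 of 5 peaks of ZNF771. From peaks inside the gene alone, ZNF771 had 30.9 and 11.6 RPM (ratio 1.41), ZNF653 6.40 and 4.74 RPM (ratio 0.43) and ZNF174 4.02 and 2.60 RPM (ratio 0.63). ZNF575 kept 8.10 and 2.12 RPM (ratio 1.93), and ZNF789 kept 0.20 and 0.08 RPM (ratio 1.22), since its peak of 15966 nt reached past the gene. ZNF433 kept only 1.17 and 1.07 RPM (ratio 0.13), because its short peak over the start began just before the gene. A peak on the opposite strand shared bases with 36 of the 220 peaks (16.4%), 9.86% on chromosome 19 and 19.5% elsewhere, beside 12.9% in other genes. The kit kept strand, but whether counting used the strand is not given in the sources used here, so such pairs cannot be told apart with certainty.

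The corepressors with which KRAB zinc finger proteins work lay close to other genes of their input level. Of 31 listed genes, 21 had a ratio, 12 (57.1%) were enriched, the median ratio was 1.10 and the median difference from class 0.02. Over all protein-coding genes 63.9% were enriched, and 39.1% of those with at least 5 RPM in input, while the median input of the list was 7.89 RPM. The enriched ones with the most input were SUMO3 (50.3 RPM in PRMT5 RIP and 24.5 in input, ratio 1.04), RBBP4, a histone chaperone (28.9 and 11.0, ratio 1.40), and the HP1 gene CBX1 (18.98 and 8.26, ratio 1.20). Those below the 2-fold line with the most input were the HP1 gene CBX3 (105 and 67.6, ratio 0.63), SUMO2 (55.1 and 36.5, ratio 0.60) and the deacetylase gene HDAC1 (50.1 and 35.3, ratio 0.51). SETDB1 had 0.19 and 0.08 RPM (ratio 1.15). TRIM28 was not named by the rule because its strand was not known, and the 4 peaks inside its bounds, all of 1 identifier, held 36.3 and 16.7 RPM (ratio 1.12).

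Zinc finger factors with other names had somewhat more input and similar ratios. Of 79 such genes, 35 had a ratio, with a median input of 1.43 RPM, beside 0.64 RPM in ZNF genes. In them 27 (77.1%, beside 63.9% of all protein-coding genes) were enriched, the median ratio was 1.50 and the median difference from class 0.09. CTCF, the insulator protein, had 9.26 and 2.44 RPM (ratio 1.92), and YY1, a Polycomb-linked factor, 26.2 and 7.66 RPM (ratio 1.77). Both were named without a rule and lay 0.69 and 0.72 above their class. Most input among the 35 was in MAZ (287 and 156 RPM, ratio 0.88), GTF3A (246 and 119 RPM, ratio 1.05) and ZKSCAN1 (31.05 and 24.5 RPM, ratio 0.34). All these ratios lay within the range of ZNF genes.

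The start regions of listed and unlisted ZNF genes differed in base composition. In RefSeq windows from 250 bases before to 50 after the start, the median share of G and C was 65.7% for 101 listed ZNF genes and 59.8% for 302 unlisted ones, beside 62.7% over 15752 protein-coding genes and 66.0% over 5559 other genes with a named peak. The GC box GGGCGG, on either strand, was in 78.2% of listed and 60.3% of unlisted ZNF windows, beside 58.5% of all windows and 73.2% of those of other genes with a named peak. The gap between listed and unlisted ZNF genes was 78.1% against 67.6% on chromosome 19 and 78.3% against 50.0% elsewhere, and 176 of the 302 unlisted genes were on chromosome 19. Among the windows printed above, those of ZNF511, ZNF433 and ZNF668 hold it. The ETS core CCGGAAG was in 38.6% of listed and 41.4% of unlisted ZNF windows. It was in 14.2% of all windows and 21.9% of those of other genes with a named peak. Of the printed windows that of ZNF593 holds it. The CCAAT box (CCAAT) was in 44.6% of listed and 50.0% of unlisted ZNF windows, and the TATA box (TATAAA) in 3.96% and 2.98%. Over all windows the shares were 36.4% and 9.64%, and in other genes with a named peak 38.3% and 5.74%. No motif contains another, and a match is only a match of letters.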

How the data were processed

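The deposited list gives, for each peak, an RPM value (read count scaled to library size) for PRMT5 RIP and for input that the authors rounded to 0.01, and the peak caller's log2 fold change, p-value and FDR (q-value). The submitters' processing notes name fastp, HISAT2 and hg38, without versions. The peak caller, the annotation and the way in which the 2 libraries of a group were pooled are not given in the sources used here. Read totals are unknown, so no counting interval is given for an RPM value.

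Peak starts were raised by 1, and a peak counted for the identifier listed first. Of the identifiers, 849 took a symbol from the study's supplementary table and 5390 from a GRCh38.p14 RefSeq gene on the same strand. This was the gene that all their peaks touched or, where none was touched by all, the only gene that any peak touched. Some peaks counted for ZNF575, ZNF747 and ZNF771 thus lay wholly outside the gene. The supplementary table and the position gave the same symbol for 693 of 694 identifiers. Of the ZNF genes, 8 were named from the table and 94 by position. RPM values were summed per gene and a ratio was taken with a pseudocount of 0.01 RPM. Each gene was compared with the median of genes without a ZNF name in its class of 10 classes of summed input. The peak caller's log2 values served only as an alternative, and its p-values were not used beyond an FDR limit.

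ZNF genes were named where summed input reached 1 RPM and the gene was among the 5 highest or 5 lowest ratios, the 3 highest inputs or the 3 genes with the most peaks, on chromosome 19 or elsewhere. For the corepressors the 3 enriched and 3 other genes with the highest input were named, with TRIM28 and SETDB1. The members, the lists and the alternatives were chosen with earlier results of these data known. Protein sequences were not used here. Python 3.11.15, pandas 2.3.3, numpy 2.4.6, scipy 1.17.1 and matplotlib 3.10.9 were used.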

Additional observations from a re-analysis of the deposited data

How the results depend on the processing

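The list holds 1 pooled value per group, so no replicate could be left out. No paired analysis was possible because the values carry no replicate number. Over 106 values of the group results under alternatives, 89 stayed within the main result's interval or within 1.5 times the main count, and the median difference from class stayed between −0.09 and 0.07. The other 17 moved with the scale or the filter. With the peak caller's log2FC, 100% of genes passed in both groups and the medians were 2.29 on chromosome 19 and 2.22 elsewhere. A pseudocount of 0.1 RPM gave a median of 1.22 on chromosome 19 and an enriched share of 58.0% elsewhere. A pseudocount of 1 RPM gave shares of 28.1% and 18.8% and medians of 0.61 and 0.50. With peaks of at least 0.5 RPM in input, 47 genes were left, with shares of 53.8% and 50.0% and medians of 1.07 and 1.00, and 6.25% and 17.4% of RefSeq ZNF genes had a named peak. The last 3 settings shrink the ratio or drop the low-input genes by construction, and the scaling behind the caller's log2FC is not stated. Chromosome 19 thus kept the smaller share of listed genes. ZNF207 turned above 0, to 1.36 with the caller's log2FC and to 0.051 without its wide peak, which was dropped by an FDR limit of 0.01, a width limit of 1000 nt, the removal of peaks with an opposite-strand overlap, and the restriction to peaks inside the gene. Of 326 values of named genes, 297 kept their side of the 2-fold line, 24 came to pass it and 5 fell below it. Alternatives with genes of unknown strand (111 ZNF genes), with peaks inside the gene, and without ZNF8, ZNF18 and ZNF878, whose identifiers may belong to other transcripts, were chosen after seeing the data. The alternative without ZNF genes of near-identical proteins was not run, since no protein sequences were used here.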

Other observations

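A further 10 ZNF genes were named when the strand was not checked, 1 of them on chromosome 19, and in 9 of the 10 PRMT5 RIP was at least 2 times input, beside 63.9% of all protein-coding genes and 94.4% of those below 0.2 RPM in input. ZNF524, on chromosome 19, had 9.04 RPM after PRMT5 RIP against 3.83 RPM in input over 5 peaks, a log2 ratio of 1.24. ZNF394, on chromosome 7, had 8.79 and 2.83 RPM (1.63), and ZNF746, also on chromosome 7, had 3.37 and 0.51 RPM (2.70). ZNF706, on chromosome 8, was the only one of the 10 below the 2-fold line. It had 44.1 and 38.6 RPM (0.19), the highest input among them. These genes lie within the range of the ZNF genes of known strand, where only ZNF207 had a lower ratio than ZNF706. A peak also touched ZNF343, ZNF514, ZNF544, ZNF547, ZNF609, ZNF713 and ZNF844 on their strand, but its identifier could not be given to these genes alone.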
